A study of Mus musculus with 4 samples.

Results

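Cd74, H2-Aa, H2-Ab1 and H2-Eb1 were chosen by symbol from the deposited gene lists and make up 4 of the 25827 genes counted. Their identifiers are ENSMUSG00000024610, ENSMUSG00000036594, ENSMUSG00000073421 and ENSMUSG00000060586. Cd74 encodes the invariant chain and is the marker by which the study names a myogenin+/CD74+ population of myogenic progenitors (MPs), the stem cells of skeletal muscle and their dividing and differentiating descendants. H2-Aa, H2-Ab1 and H2-Eb1 encode chains of the MHC class II molecules that the invariant chain accompanies. The question put to the data was whether Cd74 transcripts travelled with those of its class II partners, in which cells, and whether any of the 4 differed between genotypes.

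MPs were sorted 6 days after injury of the tibialis anterior muscle of 12-week-old mice with cardiotoxin, a venom peptide that kills myofibres, and single-cell RNA was counted as unique molecular identifiers (UMIs), 1 per captured molecule. All mice carried Pax7Cre, a Cre recombinase expressed from the Pax7 locus without an inducer, so the control groups carried it too. The Pax7CremiR-501fl/Y mice, called miR-501KO, also carried a floxed miR-501 gene on their single X chromosome, which Cre removes in cells of the Pax7 lineage, and Pax7Cre mice served as controls. Each genotype had 2 libraries, each pooled from 3 mice, and replicates 1 and 2 came from separate runs. The sort kept cells with surface alpha7 integrin and left out those with CD45, CD31 or Sca1, so leukocytes, endothelial cells and fibroblast-type cells should have been depleted. No gene named for miR-501 was among the counted features, so the deletion could not be checked here.

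MHC class II molecules are made of an alpha and a beta chain and present peptides from ingested proteins to CD4+ T cells. Professional antigen-presenting cells such as macrophages, dendritic cells and B cells carry them, and their genes are switched on together by the transactivator CIITA, which is recruited to conserved X and Y boxes in their promoters. The invariant chain fills the groove of newly made class II dimers and guides them to endosomes, where cathepsin S degrades it and H2-DM exchanges the remaining fragment for antigen. At the surface, CD74 is also known as a receptor for the cytokine MIF, with CD44 and the chemokine receptors CXCR2, CXCR4 and ACKR3 as partners.

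The promoters were examined for the boxes through which the 4 genes are known to be controlled together. RefSeq promoter sequences on build GRCm38.p6 were matched for 2 of the 4 genes. H2-Aa, the alpha chain of the A molecule, lies on the minus strand, and the stretch shown is chr17:34287834-34287933. H2-Eb1, the beta chain of the E molecule, lies on the plus strand, and its stretch is chr17:34305757-34305856. Both run 5′ to 3′ on the gene's strand from 110 to 11 bases before the annotated start, and capitals mark the core of the X box (CTNGCAAC) and the Y box (CTGATTGG).
H2-Aa: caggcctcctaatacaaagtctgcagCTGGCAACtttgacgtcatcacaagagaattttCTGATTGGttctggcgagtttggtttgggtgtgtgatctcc
H2-Eb1: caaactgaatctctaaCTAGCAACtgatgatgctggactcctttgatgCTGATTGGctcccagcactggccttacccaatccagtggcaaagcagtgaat

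In H2-Aa the X core began 84 bases and the Y box 51 bases before the start, with 25 bases between them. In H2-Eb1 they began 94 and 62 bases before the start, with 24 bases between them. The motifs share no bases in either promoter. Among 32851 RefSeq promoter windows of 300 bases, searched on both strands, the X core was found in 3.42%, the Y box in 4.1% and both in 0.18% (59 windows). Of 22 fixed partners of class II presentation, 18 were matched, and H2-Eb2 alone held both boxes. Of 11 class I genes 9 were matched, and H2-D1 alone held both. These matches describe letters and not binding.

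Once barcodes below 5000 UMIs or 1000 genes had been set aside, the libraries held 3439 and 1829 Pax7Cre cells and 2833 and 2349 miR-501KO cells, with medians of 25254 to 34579 UMIs per cell and 73665012 to 117527749 UMIs in all barcodes of a library. In clusters built without the 4 genes, without any other H2 gene and without their partners, 3 classes of MPs were named quiescent-like, cycling-like and committed-like from their markers (5970 cells). A cluster of 341 cells raised 12 of 12 macrophage markers and was called macrophage-like, although the sort should have left such cells out. The 12 markers summed to 30346 to 36646 CPM (UMIs per 1000000 UMIs of the same cells) in its 4 libraries, against 21 to 31.6 CPM in the MP classes. Markers of dendritic cells summed to 159 to 279 CPM there and those of B cells to 17.9 to 23.6 CPM. Replicate 1 of miR-501KO stood apart: 800 of its cells fell in clusters drawn almost only from it, of which an unnamed cluster of 659 cells, cluster 7, came from this library alone. Cluster 7 raised 7 of 12 myofibre markers, but it was left unnamed because markers of another lineage were raised as well. Its leading genes included Gzma and Nkg7, which lymphocytes use. Values that rest on this library are therefore given with and without those clusters. Among kept cells, 20 carried a barcode sequence also found in another library (10 sequences, each in 2 libraries), and 4 of the 20 held a Cd74 UMI.

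All 4 genes were highest in the macrophage-like cells of every library. Their mean level over libraries there was 223 to 2955 times that in each other named class with at least 20 cells in every library. The level of Cd74 in macrophage-like cells was 6711 and 9231 CPM in Pax7Cre replicates 1 and 2, and 8208 and 6579 CPM in miR-501KO replicates 1 and 2. The level of H2-Aa was 3338, 4661, 4125 and 3120 CPM in the same order of libraries. For H2-Ab1, the beta chain of the A molecule, the levels were 2902, 3895, 3631 and 2445 CPM. For H2-Eb1 they were 2854, 3752, 3516 and 2473 CPM. For each of the 4 genes the ranges of the genotypes overlapped, with Pax7Cre replicate 2 highest and miR-501KO replicate 2 lowest.

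In order of mean level over the 4 libraries, Cd74 fell from 7682 ± 635 CPM (SEM, n = 4) in macrophage-like cells to 4.57 ± 1.48 in Schwann-like, 3.76 ± 1.0 in mural-like, 3.63 ± 0.278 in cycling-like, 3.49 ± 1.11 in quiescent-like and 2.6 ± 0.521 CPM in committed-like cells. Below the macrophage-like class, the range over libraries of each class overlapped that of its neighbour in this order, so these classes could not be ranked. The mean level in macrophage-like cells was 2955 times that in committed-like cells. H2-Aa and H2-Ab1 fell in a similar way, from 3811 ± 356 to 1.76 ± 0.35 CPM and from 3218 ± 332 to 1.53 ± 0.358 CPM in committed-like cells.

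H2-Eb1 departed from this order in mural-like cells, the pericytes and smooth muscle cells of vessels. Its level there was 11.5 and 20.2 CPM in the Pax7Cre libraries and 9.78 and 14.9 CPM in the miR-501KO libraries, above each of the other classes outside the macrophage-like one in every library. Its highest library value in the quiescent-like, Schwann-like, cycling-like and committed-like classes was 5.44 CPM. The mural-like values rested on 35, 9, 19 and 13 UMIs. In the mural-like cells of the 4 libraries H2-Eb1 gave 3.89, 3, 3.17 and 6.5 UMIs per Cd74 UMI, against 0.376 to 0.428 in macrophage-like cells, and Cd74 itself was at 2.29 to 6.72 CPM. After thinning, 18 of 260 mural-like cells (6.92%) held H2-Eb1 and 2 held Cd74, none of them with both Cd74 and a class II UMI.

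**Figure D1:**
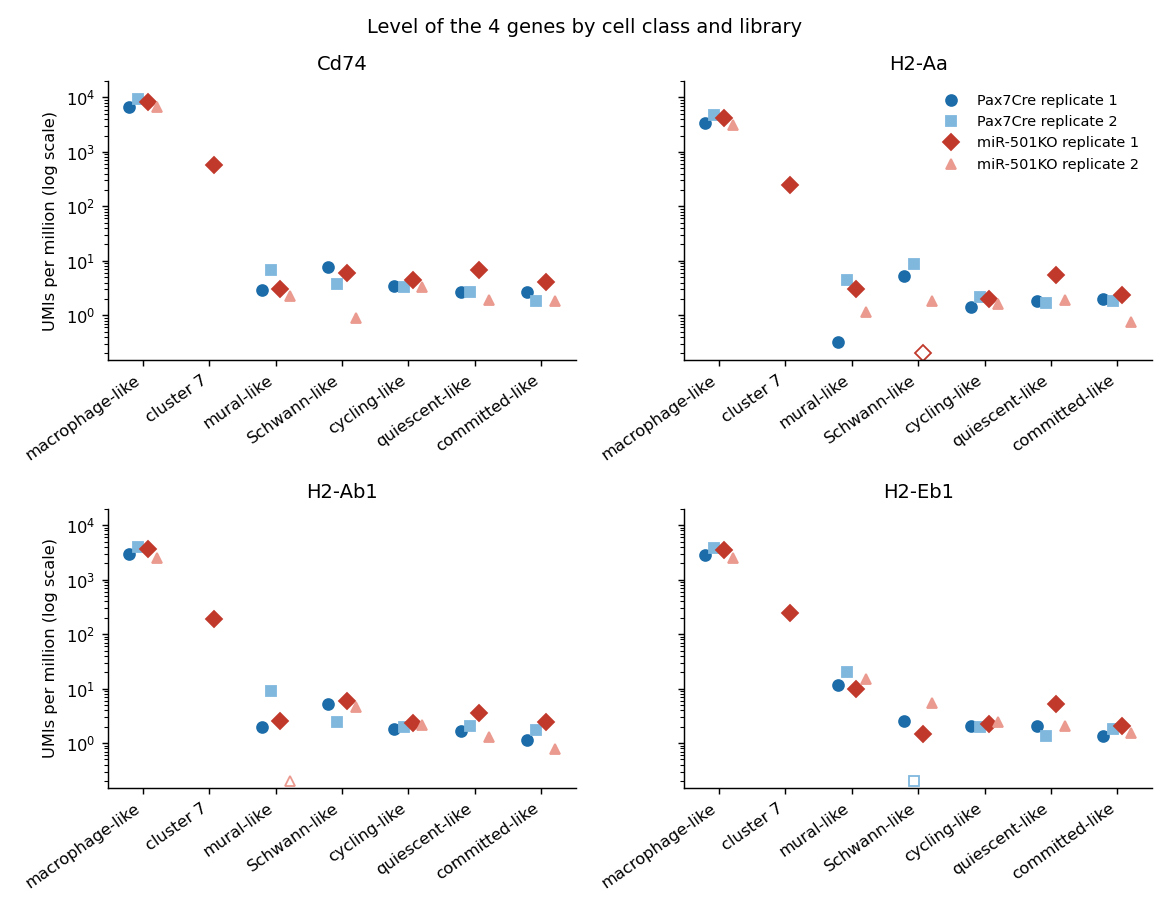
Level of the 4 genes in CPM (log scale) in the 6 named classes with at least 20 cells in every library and in cluster 7, with 1 point per library; open symbols drawn at the foot of the axis stand for a level of 0. Macrophage-like cells sit between 2445 and 9231 CPM for all 4 genes, cluster 7 at 190 to 587, and the other classes at 20.2 or less, with H2-Eb1 raised in mural-like cells.

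By the fixed rule, the 3 genes whose levels were most like each member over 24 class and library sums were found among 13971 genes. For Cd74 they were Tifab, Rac2 and Cd300ld, with Pearson's r from 0.9925 to 0.9927 on the log2(CPM + 1) scale. For H2-Aa they were Msr1, Mpeg1 and Clec4a2, and for H2-Ab1 they were Cd68, Ptprc and C1qb. For H2-Eb1 they were Pf4, Cd300lb and Cd40, whose mean mural-like levels were 5.87, 0.975 and 2.43 CPM. The points share libraries, and all 12 genes were highest in the macrophage-like class, so the order among them is a description only.

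The share of all UMIs of each gene shows where the transcripts lay. Macrophage-like cells were 3.14, 2.73, 3.67 and 3.36% of cells in Pax7Cre replicates 1 and 2 and miR-501KO replicates 1 and 2. They held 98.2, 98.3, 68 and 97% of Cd74 UMIs. The 3 class II genes were divided in a like way, with 95.2 to 98.2% in macrophage-like cells of 3 libraries and 68.7 to 73.9% in miR-501KO replicate 1. In that library the clusters drawn almost only from it held 30.8% of Cd74, 27.3% of H2-Aa, 24.5% of H2-Ab1 and 29.6% of H2-Eb1 UMIs. The 3 MP classes, which held 40.8 to 66.5% of cells, held 0.753 to 2.4% of the UMIs of each gene.

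To compare cells of unequal depth, each was thinned at random to 5000 UMIs. Macrophage-like cells then ranged from no Cd74 to a large amount, and the class II genes followed. Their median Cd74 count per cell was 9.5, 26, 21 and 9 UMIs, and 31.5, 16, 26 and 26.6% of cells had none. At the other end 17.6, 26, 15.4 and 20.3% of cells held 100 or more. The variance of the count was 53.4 to 74.8 times its mean. Within each library, Pearson's r between Cd74 and H2-Aa over the 50 to 108 macrophage-like cells was 0.935 to 0.959, and that between H2-Ab1 and H2-Eb1 was 0.961 to 0.970. Cd74 was less closely related to C1qa, a complement component that marks tissue macrophages, with r from -0.151 to 0.390, and to the class I heavy chain H2-K1, with r from 0.114 to 0.436. These cells share libraries and depth, and the values describe them.

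**Figure D2:**
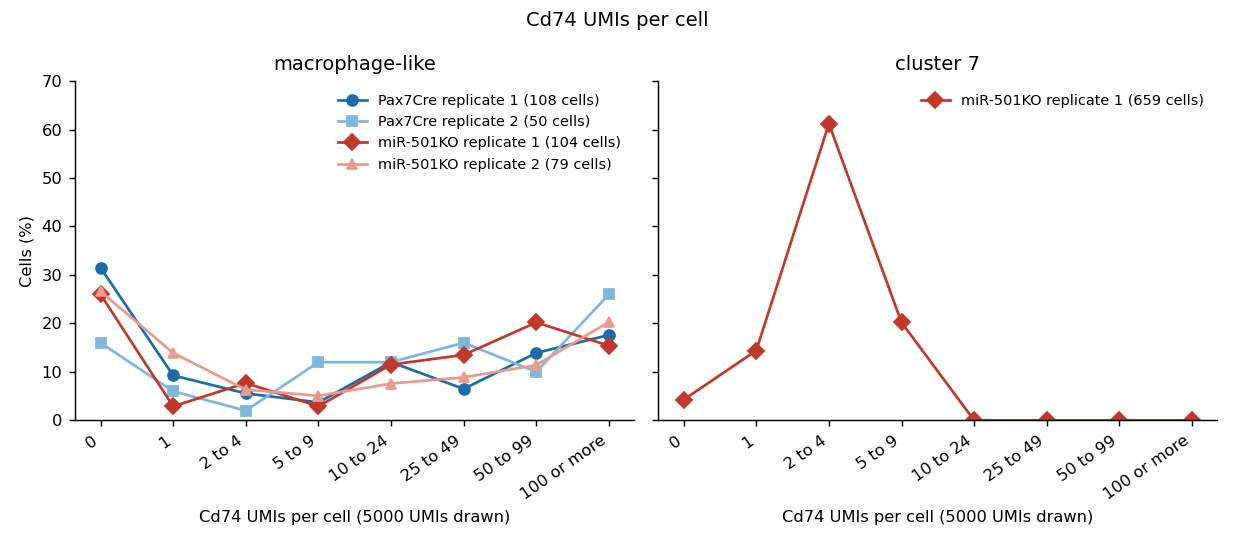
Share of cells (%) by Cd74 UMIs per cell after thinning to 5000 UMIs, for macrophage-like cells of each library and for cluster 7. Macrophage-like cells spread from 0 UMIs (16 to 31.5% of cells) to 100 or more (15.4 to 26%), whereas no cell of cluster 7 held 10 or more and 61.2% held 2 to 4.

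In cluster 7 Myog, the gene of myogenin, was at 1056 CPM and was found in 99.7% of thinned cells. Cluster 7 had another distribution of the 4 genes. All of its 659 cells held Cd74 before thinning, and 95.8% did after it, but the mean was 3.04 UMIs, the highest count was 9 and the variance was 0.911 times the mean. H2-Aa, H2-Ab1 and H2-Eb1 were found in 72.2, 60.7 and 67.8% of these cells, with variances of 1.03 to 1.07 times the mean. Between the 4 genes r ranged from -0.067 to 0.063 over the 659 cells. In cluster 7 the cells with and without a thinned Cd74 UMI had a median of 10 and 8 UMIs of the 12 macrophage markers, and 1.9% of those with Cd74 held a UMI of Ptprc, the gene of CD45. Among macrophage-like cells with Cd74, Ptprc was found in 60.8 to 81.8%. A class II UMI was found in 609 of 631 cells of cluster 7 with Cd74 and in 28 of 28 without. The part of other cells' RNA in these values was not tested.

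In macrophage-like cells the genes of antigen presentation were set against Cd74 by comparing cells with 10 or more thinned Cd74 UMIs (54, 32, 63 and 38 cells) with cells that had none (34, 8, 27 and 21 cells). This comparison was added after the spread of Cd74 had been seen, and Cd74 itself was left out of it. In the cells without Cd74, summed H2-Aa counts were 3, 0, 5 and 2 UMIs, against 2011, 1335, 2222 and 1489 UMIs in those with 10 or more. H2-Ab1 gave 3, 1, 0 and 1 UMIs against 1679, 1102, 1888 and 1104. H2-Eb1 gave 1 UMI in each library against 1736, 1035, 1898 and 1154. The class II genes were thus nearly absent where Cd74 was.

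These 3 genes passed the filter on low counts only through the cells with Cd74, so their difference is given by the counts, with no test. For the other genes the sums were compared by edgeR's quasi-likelihood test with the library as a block, on the log2 scale with SE. In all, 4.89% of 2313 genes were called higher (113 genes), and 48 were called lower. Of the 22 class II partners 7 passed the filter and 5 rose. H2-DMa and H2-DMb1, the chains of the peptide exchanger, rose by 2.97 ± 0.23 and 3.54 ± 0.28. Ctss, the protease that degrades the invariant chain, rose by 0.60 ± 0.14, Ifi30, a lysosomal thiol reductase, by 0.89 ± 0.19, and the costimulator Cd86 by 1.21 ± 0.35. Ctsl at -0.84 ± 0.26 and Lgmn at -0.01 ± 0.13, both lysosomal proteases, did not pass the test (adjusted p = 0.0663 and 0.974, edgeR).

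Of 8 class I genes tested, H2-K1, H2-D1, B2m and H2-T23 rose, by 0.55 to 1.35 on the log2 scale. Of the MIF receptor genes tested, Cxcr4 rose by 1.26 ± 0.22, whereas Cd44 (0.38 ± 0.23) and Mif (-0.47 ± 0.21) did not pass the test. Of the 12 macrophage markers 5 rose, by 0.41 to 0.65, and none fell. The median over the markers was 0.45, over the class II partners 0.89 and over the genes tested -0.00. None of the 4 interferon genes tested was called, with Irf1 at 0.80 ± 0.30.

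The genes known to act with class II molecules were at 6685, 6211, 6157 and 5812 CPM in sum in macrophage-like cells and at 680, 658, 641 and 681 CPM in the 3 MP classes. Much of the first sum was Ctss, at 2943, 2543, 2694 and 2375 CPM. Ciita, the transactivator, was at 30.1, 43.3, 65.4 and 37.4 CPM in macrophage-like cells. The 6 genes that work with CD74 in MIF signalling were at 866 to 1026 CPM in macrophage-like cells and at 847 to 922 CPM in the MP classes, so the ranges overlapped for this list.

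The number of class II UMIs (H2-Aa, H2-Ab1 and H2-Eb1 in sum) per Cd74 UMI differed less among macrophage-like cells than between groups of cells. It was 1.36 and 1.33 in the Pax7Cre libraries and 1.37 and 1.22 in the miR-501KO libraries. The Clopper-Pearson 95% interval of the last, 1.19 to 1.25, lay below those of the other libraries, and the intervals cover counting error only. In cluster 7 the ratio was 1.15 (1.12 to 1.19). In the 3 MP classes it was 1.71, 2.04, 1.79 and 2.04, higher than in macrophage-like cells of each library, on 137 to 245 Cd74 UMIs per library. Such ratios depend on how well each transcript is captured and were compared only between groups of cells.

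**Figure D3:**
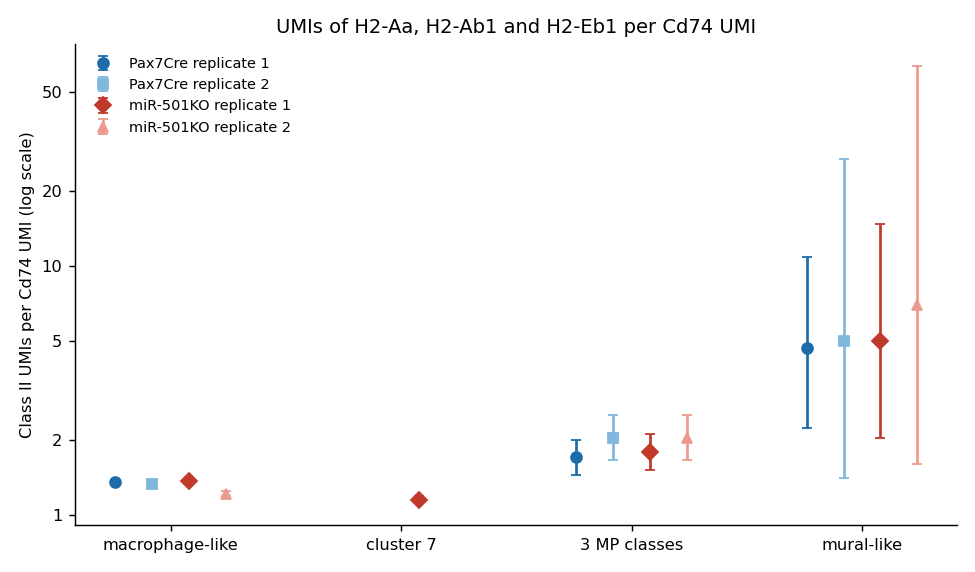
Summed UMIs of H2-Aa, H2-Ab1 and H2-Eb1 per Cd74 UMI (log scale) by group of cells and library, with Clopper-Pearson 95% intervals that cover counting error only. Macrophage-like cells lie at 1.22 to 1.37, cluster 7 at 1.15, the MP classes at 1.71 to 2.04 and mural-like cells at 4.67 to 7.

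Within the MP classes Cd74 was rare, and most thinned cells with it held no class II UMI. After thinning, 20 of 2167 and 9 of 1216 Pax7Cre cells and 26 of 1156 and 29 of 1431 miR-501KO cells held Cd74, which is 0.923, 0.74, 2.25 and 2.03% of cells. Among Schwann-like cells, a class not known for the gene, 1 of 23, 1 of 58, 2 of 38 and 0 of 75 held Cd74. The last count allows a share of up to 4.0% by the rule of 3, which is not a Wilson interval. Median depths were 10544 to 15300 UMIs in that class and 29082 to 34833 in the MP classes. Macrophage markers summed to 202, 487, 101 and 1086 CPM in the Schwann-like cells, well over the MP classes, and with so few cells no order was read from these shares. The part of other cells' RNA in the MP counts was not tested. Of the Cd74+ MP cells, 4 of 20, 0 of 9, 4 of 26 and 14 of 29 also held a class II UMI. A count of 0 of 9 allows a share of up to 29.9% (Wilson 95% interval). In sum the Cd74+ MP cells held only 26, 9, 29 and 57 thinned Cd74 UMIs, so a class II transcript at a like level could be missed. Before thinning, the same cells held 78, 11, 62 and 70 Cd74 UMIs and 58, 1, 61 and 84 class II UMIs. Among the Cd74- MP cells the shares with class II were 2.61, 3.15, 5.04 and 2%. In macrophage-like cells the corresponding shares were 89.2, 92.9, 96.1 and 84.5% with Cd74 and 11.8, 12.5, 18.5 and 14.3% without. Those cells held far more Cd74 per cell, so the shares of the 2 groups are not at a like level of Cd74.

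**Figure D4:**
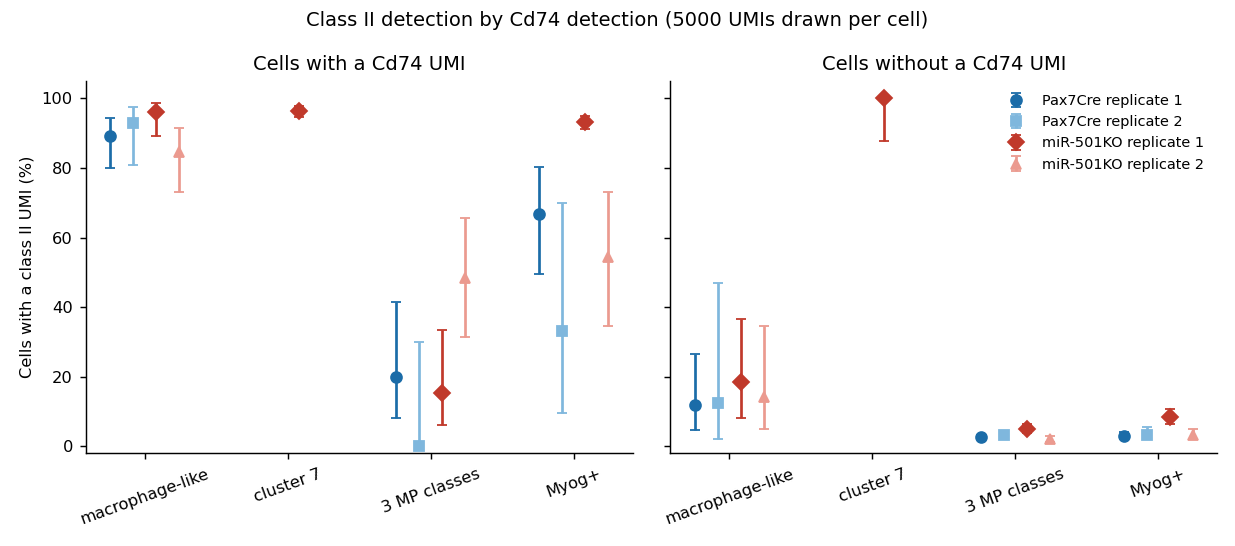
Share of cells (%) with a UMI of H2-Aa, H2-Ab1 or H2-Eb1 among cells with (left) and without (right) a Cd74 UMI, after thinning to 5000 UMIs, by group of cells and library, with Wilson 95% intervals. With Cd74, macrophage-like cells lie at 84.5 to 96.1% and MP classes at 0 to 48.3%, and without it the MP classes lie at 2 to 5.04%. The Cd74+ MP cells held few Cd74 UMIs, so a class II UMI could be missed in them.

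When the summed counts of Cd74+ and Cd74- MP cells were compared with the library as a block, H2-Eb1 was the 1 class II gene that passed the filter. It was called higher by edgeR, by 3.98 ± 0.57 on the log2 scale, where 0.0779% of 10272 genes (8 genes) were called higher. It passed the filter mainly through its Cd74+ sums, so this call is not read as a result about the gene. The UMIs of H2-Eb1 in Cd74+ cells were 1, 0, 1 and 20, so 1 library held nearly all of them. Without miR-501KO replicate 2 the difference was 1.14 ± 1.55 (adjusted p = 0.997, edgeR), and DESeq2 gave 2.99 with adjusted p = 1. In that library the cells with Cd74 and class II had a median of 2 macrophage-marker UMIs, against 0 in those with Cd74 alone, and Lyz2, a macrophage lysozyme, was another of the 8 genes called higher. The part of other cells' RNA in this result was not tested.

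Cells with a Myog UMI, the transcription factor of committed MPs that names the study's population, were then divided by Cd74. They were 1133, 472, 1339 and 607 thinned cells, of which 33, 6, 669 and 22 held Cd74. Of those, 22, 2, 624 and 12 also held a class II UMI, or 66.7, 33.3, 93.3 and 54.5%. Without the clusters drawn almost only from miR-501KO replicate 1, that library had 32 Myog+ Cd74+ cells, of which 17 (53.1%) held class II. Among Myog+ Cd74- cells the shares were 3.09, 3.43, 8.36 and 3.25%.

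The clusters in which the Myog+ Cd74+ cells lay differed between libraries. Macrophage-like cells made up 20 of 33, 2 of 6, 13 of 669 and 14 of 22, the MP classes 8, 4, 9 and 2, and in miR-501KO replicate 1 the clusters drawn almost only from it made up 637 (95.2%). The Myog+ Cd74+ cells that clustered as macrophage-like had a median of 48.5, 92.5, 48 and 3 Cd74 UMIs, and 95, 100, 100 and 78.6% held class II. Their median macrophage-marker count was 191, 266, 159 and 27.5 UMIs, and their median Myog count was 1, 1, 1 and 2.5. Those in the MP classes had a median of 1, 1, 1 and 1.5 Cd74 UMIs and 0 to 0.5 macrophage-marker UMIs, with a median of 9.5 to 17.5 Myog UMIs. Only 5 of these 23 MP cells held class II. The 637 cells in clusters drawn almost only from miR-501KO replicate 1 had a median of 3 Cd74, 9 macrophage-marker and 5 Myog UMIs. They had a median of 36 UMIs of the other committed markers, and 95.3% of them held class II.

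Across all Myog+ cells, the 3 class II genes were higher with Cd74 in every library. H2-Aa was at 3690, 3260, 498 and 816 normalised CPM in Myog+ Cd74+ sums and at 2.76, 2.5, 11.6 and 3.32 in Myog+ Cd74- sums. H2-Ab1 was at 3010, 2330, 398 and 586 against 1.84, 2.5, 9.25 and 0.664. H2-Eb1 was at 3070, 2410, 445 and 544 against 2.21, 1.67, 13.4 and 2.66. In miR-501KO replicate 1 the level with Cd74 was lowest and the level without it highest, for each of the 3.

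With the library as a block, the fitted difference on the log2 scale was 8.47 ± 0.54 for H2-Aa, 8.79 ± 0.55 for H2-Ab1 and 8.30 ± 0.54 for H2-Eb1. Each passed the filter on low counts mainly through the Cd74+ sums, as its Cd74- sums lay under it in 3 of 4 libraries. No p-value is therefore given for these 3 genes, and their differences are a description. Of the 10205 genes tested 2.87% (293 genes) were called higher and 58 lower. Without the clusters drawn almost only from miR-501KO replicate 1 the differences were 9.90, 9.99 and 9.47. Of the 12 macrophage markers, 12 were higher with Cd74, with a median of 5.73 against -0.16 over all genes. The Cd74+ sums held cells clustered as macrophage-like, a class named by these markers. The rise of the markers is therefore a description, and its calls are not read. In sum they were at 16721, 9344, 2509 and 12113 CPM with Cd74 and at 166, 19.2, 207 and 139 CPM without. Of the thinned class II UMIs in Myog+ Cd74+ cells, macrophage-like cells held 1458, 319, 933 and 227, and the MP classes held 4, 0, 2 and 2. In miR-501KO replicate 1 the clusters drawn almost only from it held 2172. The differences across all Myog+ cells thus describe few class II UMIs of the MP classes. The macrophage markers moved with the class II genes, and their part in the result was not tested.

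Of the 22 class II partners 14 passed the filter and 6 were higher with Cd74. H2-DMa was higher by 5.11 ± 0.56, H2-DMb1 by 6.50 ± 0.66, Ctss by 6.04 ± 0.48, Lgmn by 2.53 ± 0.40, Ifi30 by 4.03 ± 0.43 and Cd86 by 7.43 ± 0.79. Whether these 6 genes passed the filter mainly through the Cd74+ sums, as the class II genes did, was not tested. The Cd74+ sums also held macrophage-like cells, so these differences are a description and their calls are not read. Of 10 class I genes 6 rose, by 2.17 to 3.06. Of 5 MIF receptor genes Cxcr4 rose, by 1.30 ± 0.40. Of 11 committed markers none was called, with a median of -0.61, but this fit pooled unlike cells. Myog+ Cd74+ cells clustered as macrophage-like had a median of 3, 1, 3 and 13.5 UMIs of these markers. Those in the MP classes had 47.5, 169, 40 and 87. The list of 8 interferon genes had 1 called, the receptor chain Ifngr1, at 1.44 ± 0.40.

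**Figure D5:**
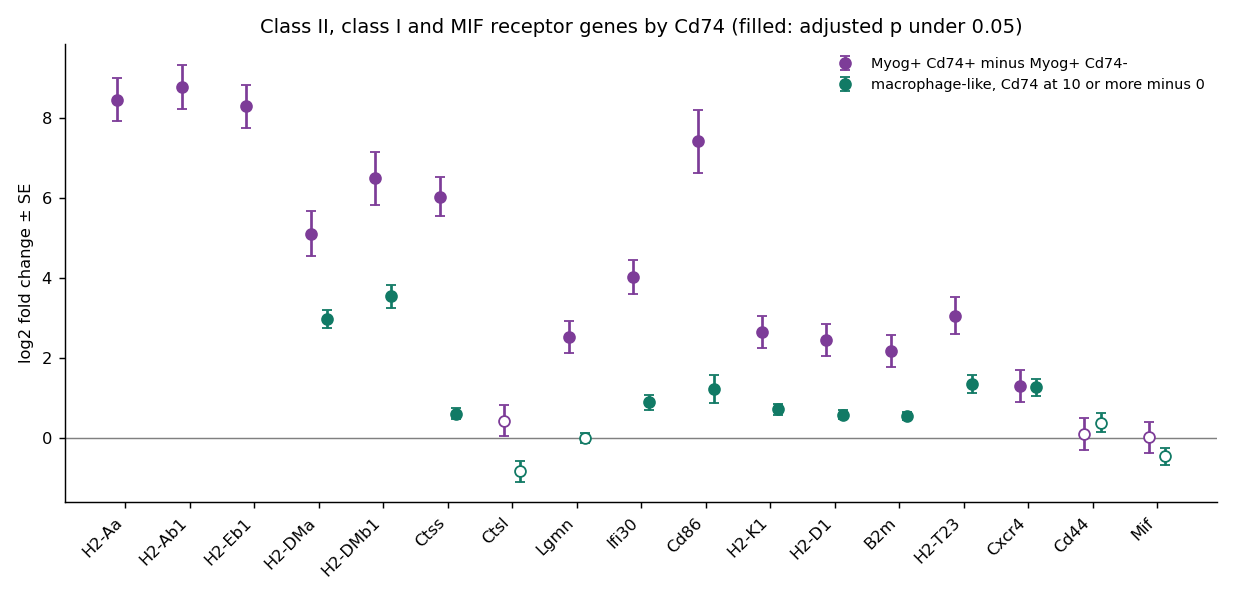
Log2 fold change ± SE of class II, class I and MIF receptor genes in Myog+ Cd74+ against Myog+ Cd74- cells and in macrophage-like cells with 10 or more against 0 thinned Cd74 UMIs; filled points have an adjusted p under 0.05 (edgeR) and an untested gene has no point. The 3 class II genes are drawn for Myog+ cells only, at 8.30 to 8.79, H2-DMa and H2-DMb1 lie at 2.97 to 6.50 over both comparisons, and Mif and Cd44 were not called in either. The filling of the 3 class II points is not read, as these genes passed the filter mainly through the Cd74+ sums. The filling of the class II partners in Myog+ cells is not read either.

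Between genotypes, none of the 4 genes passed the test in all cells, in macrophage-like cells or in the MP classes. Over all cells Cd74 was at 173, 172, 350 and 167 CPM, so miR-501KO replicate 1 was high and the other 3 libraries were alike. The difference was 0.57 ± 0.32 on the log2 scale (miR-501KO minus Pax7Cre, adjusted p = 1, edgeR), and without miR-501KO replicate 1 it was -0.06. H2-Aa, H2-Ab1 and H2-Eb1 differed by 0.50 ± 0.31, 0.45 ± 0.34 and 0.53 ± 0.36, and without that library by -0.13, -0.24 and -0.20. In this comparison 0% of 15725 genes were called by edgeR, with 440 at an unadjusted p under 0.05 and 12 called by DESeq2.

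In macrophage-like cells the differences were -0.16 ± 0.23 for Cd74, -0.19 ± 0.25 for H2-Aa, -0.21 ± 0.26 for H2-Ab1 and -0.19 ± 0.25 for H2-Eb1, with 0% of 9806 genes called by edgeR (88 at an unadjusted p under 0.05, 1 by DESeq2). Leaving out Pax7Cre replicate 2 or miR-501KO replicate 2 turned the sign of all 4. In the MP classes they were 0.34 ± 0.26, 0.35 ± 0.29, 0.23 ± 0.26 and 0.48 ± 0.24, with 0% of 14500 genes called (385 at an unadjusted p under 0.05, 1 by DESeq2). Without miR-501KO replicate 1 the first 3 were -0.14, -0.20 and -0.10. With the run as a replicate block edgeR called 0, 6 and 47 genes in all cells, macrophage-like cells and MP classes, none of them a member.

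The share of thinned cells with Cd74 was 3.31 and 3.23% in the Pax7Cre libraries and 27.1 and 4.38% in the miR-501KO libraries, a difference in means of 12.5 percentage points (exact two-sided permutation test, p = 0.33, the smallest that 2 against 2 libraries can give). The runs gave 23.8 and 1.16 points. Without the clusters drawn almost only from miR-501KO replicate 1 its share was 6.39% and the difference 2.12 points. Before thinning the second run gave a difference of -3.21 points, so its direction depended on depth. The share of Myog+ cells with Cd74 was 2.91, 1.27, 50 and 3.62%, and the third value was 5.86% without those clusters. The class II genes were also highest in miR-501KO replicate 1, at 20.5% of cells for H2-Aa, 17.8% for H2-Ab1 and 19.7% for H2-Eb1 against 2.68 to 3.75% in the other libraries (exact two-sided permutation test, p = 0.33 for each). Among Cd74+ cells of all clusters 63.2, 67.8, 89.9 and 66% held a class II UMI, a difference of 12.5 points (exact permutation p = 0.667) that became -0.929 without those clusters.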

How the data were processed

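Single-cell RNA was measured in 4 libraries of sorted cells, 2 per genotype. The deposited matrices hold UMI counts per gene and barcode, made by the authors with Cell Ranger 6.0.2 per the file headers, and the labels name build GRCm39 and Seurat. No column of another series was present. From the counts, barcodes below 5000 UMIs or 1000 genes were left out, and 10450 of 16519 remained. Cells were clustered with scanpy 1.11.5 and leidenalg 0.10.2 (10000 UMIs per cell, log, 2000 variable genes, 30 components, 15 neighbours, resolution 0.5) without 55 class I, class II and partner genes. A cluster was named where at least 3 fixed markers were raised 1.5 times in at least 10% of its cells and its 10 leading genes did not go against the name. It was left unnamed where the share of markers raised for a class of another lineage was at least 0.5 times that of its best class. Names rebuilt in this way may differ from the study's. Scrublet called 20 cells (0.191%), which was taken as not working, so doublets were kept and the 5% with the highest scores were removed as an alternative.

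Levels are UMIs per 1000000 UMIs (CPM), summed over a library's cells. Shares and per-cell counts used cells thinned to 5000 UMIs, with Wilson or Clopper-Pearson 95% intervals that cover counting error only. The upper limit for the Schwann-like library without Cd74 is by the rule of 3. Sums per library were tested with edgeR 4.0.16 (R 4.3.3; TMM, quasi-likelihood, Benjamini-Hochberg over all genes tested, threshold 0.05), with DESeq2 1.42.0 as an alternative. In Cd74+ against Cd74- fits the library was a block, and the gene used to divide the cells was left out. Libraries are pools of 3 mice, so p-values of the genotype fits measure the spread between pools. In Cd74+ against Cd74- fits both sums come from the same pool. Their p-values measure the spread of that difference over libraries and the counting error, with dispersion estimates shared among genes. Shares were compared by exact permutation over libraries (smallest p 0.33).

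The genes named were the 4 members, the fixed partner, class I, interferon, MIF and marker lists, and the 3 genes nearest each member by Pearson's r. The members and lists were chosen with earlier results of these data known. Replicate numbers name the run in the labels, so same-numbered libraries share a run. Deviations of the run 1 libraries from their group means had r = 0.17 over 14525 genes. Models were tested on simulated data. There the genotype fits over all cells and over macrophage-like cells called more unchanged genes than the threshold allows, and the Myog+ fit recovered no change of the smaller size simulated, so calls of the first kind and missing calls of the second are weak. The alternatives tried were the block, DESeq2, no filter on low counts, no thinning, at least 2 UMIs, other cell filters and clusterings, and each library left out. As an alternative, any cluster was removed if a single library gave more than 90% of it. The comparison within macrophage-like cells was added after the data had been seen.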

Additional observations from a re-analysis of the deposited data

Results flagged for a closer look

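Barcodes under the cell filter enter no comparison above, and in them the 4 genes were highest in miR-501KO replicate 1. Its 1729 such barcodes held Cd74 at 434 CPM, against 272 and 225 CPM in the Pax7Cre libraries and 233 CPM in miR-501KO replicate 2. H2-Aa was at 244 CPM against 140 and 134 CPM in the Pax7Cre libraries and 87.6 CPM in miR-501KO replicate 2. H2-Ab1 was at 217 CPM against 104, 82.3 and 84.5 CPM, and H2-Eb1 at 237 CPM against 122, 95.5 and 79.9 CPM, in the same order. The second miR-501KO library thus lay within or below the range of the controls for these 4 genes. These are single values for each library with no test.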

How the results depend on the processing

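Of 203 member values under other settings, 186 kept their direction and call, 15 changed direction and 2 lost the call, and none gained one. The values of the class II genes in Myog+ cells are among them, and their calls are not read. The 15 came from leaving out a library and none of them was called. Over all cells without miR-501KO replicate 1, Cd74, H2-Aa, H2-Ab1 and H2-Eb1 were at -0.06, -0.13, -0.24 and -0.20, and in the MP classes the first 3 were at -0.14, -0.20 and -0.10. In macrophage-like cells the 4 were at 0.12, 0.10, 0.05 and 0.06 without Pax7Cre replicate 2 and at 0.03, 0.03, 0.08 and 0.07 without miR-501KO replicate 2. The other ends of these ranges were 1.0, 0.93, 0.92 and 1.01 over all cells, -0.39, -0.45, -0.57 and -0.51 in macrophage-like cells, and 0.70, 0.75 and 0.51 in the MP classes. H2-Eb1 in Cd74+ MP cells lost its call with DESeq2 (2.99) and without miR-501KO replicate 2 (1.14). The difference in the share of Myog+ cells with H2-Ab1 was -0.0475 to 29.1 points with a replicate left out. That in the share of Cd74+ cells with class II was -1.78 to 26.7, with -6.57 at 2 or more UMIs and -0.929 without clusters of a single library.

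With run as a replicate block the difference of Cd74 was 0.47 ± 0.21 over all cells (adjusted p = 0.899, edgeR), -0.15 in macrophage-like cells and 0.31 in MP classes, and no member was called. The block raised the count of genes called between genotypes from 0 to 6 in macrophage-like cells and to 47 in MP classes. DESeq2 called 12, 1 and 1 genes in all cells, macrophage-like cells and MP classes. Without a filter on low counts 23 and 71 were called in macrophage-like cells and MP classes. Leaving out a library gave 0 to 3, 4 to 29 and 8 to 70. For Cd74+ against Cd74- MP cells (9 called) the count was 3 without the block, 0 with DESeq2, 21 without the filter, 21 at 2 or more Cd74 UMIs, 979 without thinning and 5 to 30 with a library left out. For Myog+ cells (351 called) it was 1696 without the block, 651 without the filter, 729 without thinning and 612 without clusters of a single library. Within macrophage-like cells (161 called) it was 64 with DESeq2, 278 without the filter and 68 to 178 with a library left out. Why these counts moved was not tested. With a minimum of 2000 UMIs no cluster could be named macrophage-like, so that alternative gave no value there.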
